A study of Macaca mulatta with 12 samples.

Results

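The FCRL (Fc receptor-like) family was followed through the blood B cells of 6 rhesus macaques. Its members were the genes FCRL1, FCRL2, FCRL3, FCRL4, FCRL5 and FCRLA, taken by name, which are 6 of the 22584 genes listed in the count table. The animals were juveniles of Indian origin, 2 to 3 years old, healthy and unmanipulated, 2 males in batch 1 and 4 females in batch 2, so that sex and batch cannot be told apart. Each gave 1 gene expression library (5′ end, droplet-based single cells of blood mononuclear cells) and 1 B cell receptor (BCR) library made from it. The deposited cell table also carries treatment group names, with the same time label for every cell, which were not used here. The main comparisons were between cells of the same animals: annotated subtypes, heavy chain classes and mutated against unmutated receptors.

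FCRL proteins are relatives of the classical Fc receptors and belong to the immunoglobulin superfamily. FCRL1 to FCRL5 sit in the cell membrane, where their cytoplasmic tails carry tyrosine motifs that recruit kinases or phosphatases and so tune signalling by the BCR. In humans, FCRL1 is a co-activating receptor of mature B cells, FCRL5 binds IgG and FCRL4 binds IgA, and both of the latter are known as markers of atypical or tissue memory B cells. FCRLA stands apart: it lacks a membrane anchor, stays inside the cell and binds immunoglobulin in the secretory pathway. All 6 genes were matched in RefSeq's rhesus table (assembly T2T-MMU8v2.0), where FCRL1 to FCRL5 are direct neighbours with 0 protein-coding genes between any pair, and 102 protein-coding genes lie between FCRLA and FCRL1.

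The table held 13324 cells of 12 annotated B cell subtypes and 525 cells annotated as contamination. Subtype names such as M-MBC, C-MBC and M-MZL BC are those of the authors' annotation. An animal had between 3642517 and 20023015 counted UMIs (unique molecular identifiers) in all, and B cells per animal numbered from 563 in female 4 to 3048 in female 3. The median UMI count per B cell was 4018 and 4079 in the males and 5770 to 6736 in the females. Of 13752 different cell barcodes, 96 occurred in more than 1 library, and cells were kept apart by library. Levels below are in CPM: UMIs summed over the cells of 1 animal and group, divided by the sum's UMIs of all named non-immunoglobulin genes and scaled to a total of 1000000, given as mean ± SD over animals with at least 10 cells. The summed level of 4 B cell markers (MS4A1, CD79A, PAX5 and BANK1) was 2544 to 4492 CPM in 11 subtypes and 868 ± 335 in antibody-secreting cells. In the contamination cluster those B cell markers stood at 2180.4 ± 517 CPM and 9 T cell markers at 1202 ± 598, against 73.0 to 311 for the T cell markers in the B cell subtypes.

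The members differed widely in how often they were seen. FCRL1 had 31364 UMIs in B cells and at least 1 UMI in 68.5% of them, FCRLA 27190 UMIs in 60.2%, and FCRL5 13703 UMIs in 46.3%. FCRL2 was rarer, with 2719 UMIs in 13.9% of B cells, and FCRL3 had 1348 UMIs in 7.60%. FCRL4 was close to absent, with 46 UMIs in 44 of 13324 cells (0.330%). Intervals and limits from such counts cover counting error only. Because 5′ counting takes 1 UMI per captured molecule and capture differs between transcripts, levels are compared between cells for 1 gene and not between genes.

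Among the 9 subtypes with the most cells, FCRL1 had its highest mean in Naive B cells 1 and its lowest in the CD11c+ memory cells, named for the integrin encoded by ITGAX. In Naive B cells 1 it ranged from 674 CPM in male 2 to 1485 in female 1, with a median of 977 over 6 animals. In M-MZL BC it ranged from 598 to 1133 CPM (median 804), and in M-MBC 1 from 423 to 871 (median 544). These 3 ranges overlapped, although M-MBC 1 was below Naive B cells 1 in 6 of 6 animals. In C-MBC 1 FCRL1 lay between 251 and 372 CPM, in CD11c+ MBC 1 between 151 and 228, and in CD11c+ MBC 2 between 55.5 and 159.5. All 6 animals placed C-MBC 1 above CD11c+ MBC 1 and CD11c+ MBC 1 above CD11c+ MBC 2, and the means were 618 ± 177 CPM in M-MBC 1 and 94.2 ± 44.7 in CD11c+ MBC 2. Naive B cells 3 had a higher mean still (1358 ± 682 CPM), from 4 animals with 112 cells in all, Naive B cells 2 were at 752 ± 222, and antibody-secreting cells at 119 ± 102 (n = 3). Naive B cells 2 and 3 had few ribosomal protein transcripts, with shares of 3.91% and 5.74% where Naive B cells 1 had 21.2%, and the part of this in their FCRL levels was not tested. Since the annotation of subtypes used this same expression data, all levels by subtype are a description, with no test.

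**Figure D1:**
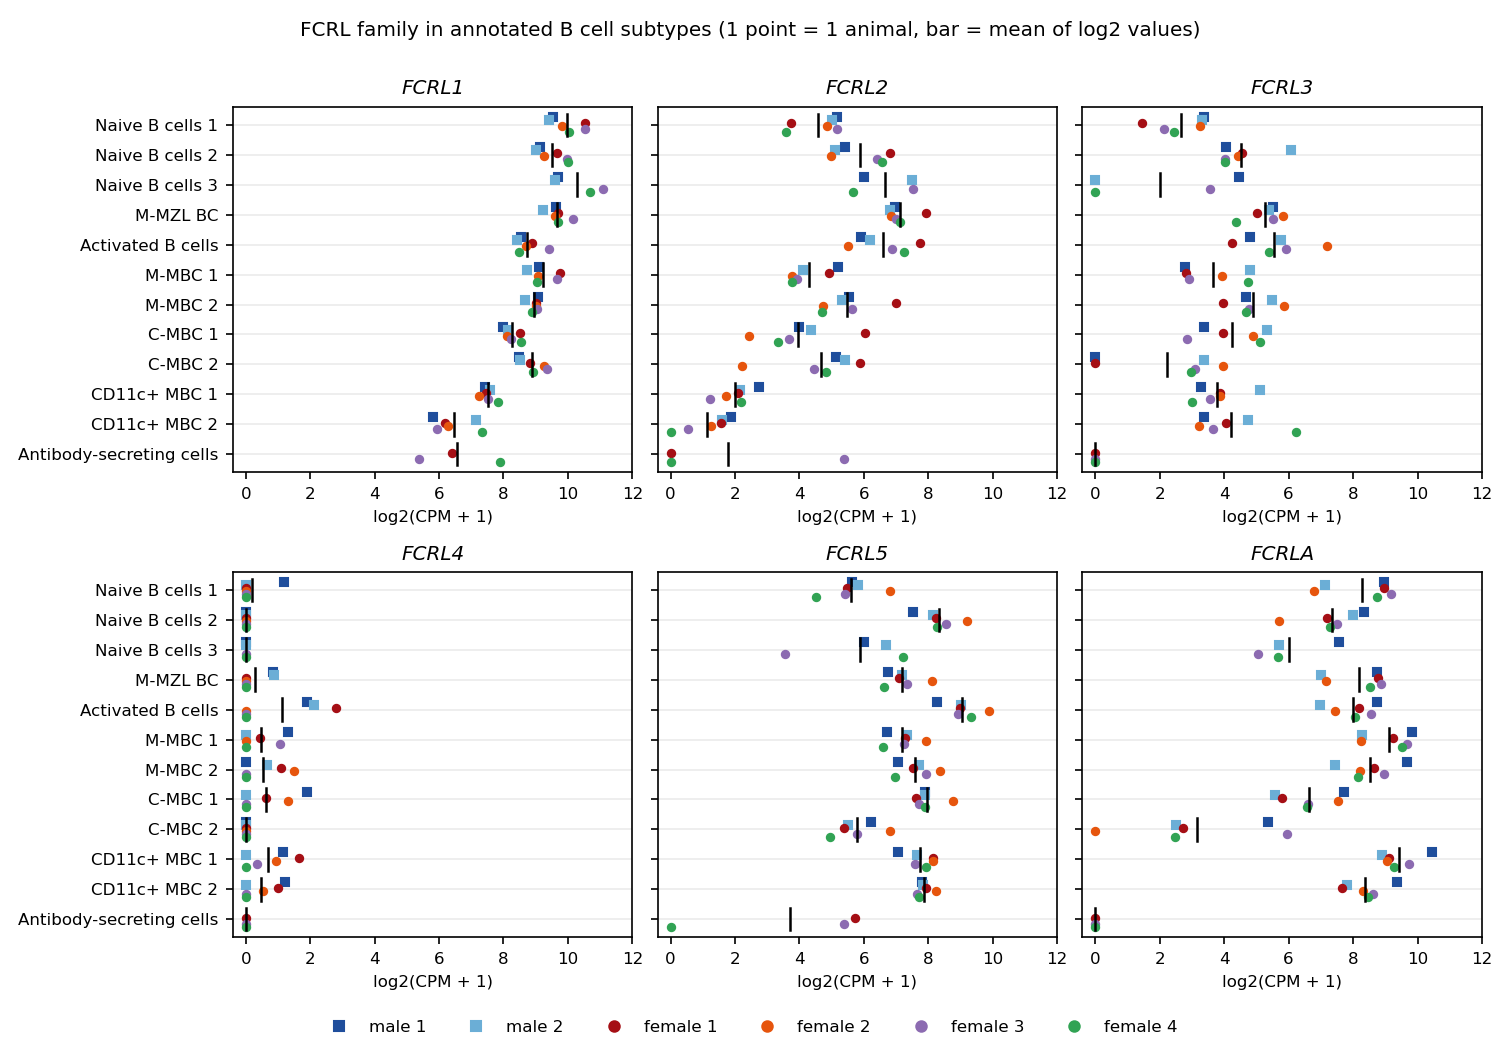
Level of each FCRL family gene, as log2(CPM + 1) on the horizontal axis, in 12 annotated B cell subtypes. Points are animals with at least 10 cells (squares males, circles females) and black bars are means of the log2 values: FCRL1 runs down from Naive B cells 3 (mean 1358 CPM) and 1 (mean 1054 CPM) to CD11c+ MBC 2 (94.2 CPM), FCRL5 peaks in Activated B cells (564 CPM), FCRLA nearly vanishes in C-MBC 2 (19.4 CPM), and FCRL4 stays near 0.

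FCRL2, a receptor with inhibitory motifs in its tail, had its highest mean in M-MZL BC and was nearly absent from CD11c+ memory cells. In M-MZL BC it was at 112 CPM in the lowest animal, 126 in the median and 242 in female 1. Activated B cells held 44.5 to 211 CPM (median 93.9), and Naive B cells 2 held 30.7 to 112 (median 62.8). Naive B cells 3, with 28 UMIs in 4 animals, had a mean of 119 ± 72.8 CPM and lay above M-MZL BC in female 3 and male 2. In 6 of 6 animals M-MZL BC lay above Naive B cells 1, where FCRL2 was at 25.2 ± 10.9 CPM. In CD11c+ MBC 1 it was at 3.25 ± 1.44 CPM (31 UMIs in 2236 cells) and in CD11c+ MBC 2 at 1.41 ± 1.01 (14 UMIs in 1527 cells). CD11c+ MBC 1 was below M-MBC 1 by a mean log2 difference of -2.27 ± 0.47 (SD over animals, on log2(CPM + 1)), and CD11c+ MBC 2 below C-MBC 1 by -2.83 ± 1.11, each in 6 of 6 animals. FCRL1 and FCRL2 were thus both lowest among the larger subtypes in CD11c+ cells, whereas M-MBC 2 exceeded M-MBC 1 for FCRL2 in 6 of 6 animals (51.6 ± 38.0 against 20.2 ± 9.85 CPM) and was below it for FCRL1 in 6 of 6.

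FCRL3, which in humans carries both activating and inhibitory motifs, was most abundant in Activated B cells. There it ranged from 18.0 CPM in female 1 to 145 in female 2 (median 47.1), and in M-MZL BC from 19.6 to 55.5 (median 42.9). These 2 subtypes overlapped, and Activated B cells were the higher in 4 of 6 animals. Naive B cells 1 held 6.05 ± 3.29 CPM (36 UMIs in 1614 cells) and lay below M-MZL BC, Naive B cells 2 and Activated B cells in 6 of 6 animals each. Across the memory subtypes the means ran from 6.34 CPM in C-MBC 2 to 31.7 in M-MBC 2, with neighbouring means closer than the larger of their SDs. Antibody-secreting cells had 0 UMIs in 56 cells, which allows a share of up to 5.36% of cells with a UMI.

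FCRL4, the IgA-binding member known from tissue memory cells, was at or below 2.01 CPM in each subtype. Its 46 UMIs came from 14 cells of female 1, 13 of male 1, 8 of male 2, 6 of female 2 and 3 of female 3, and from 0 of 563 cells of female 4. Activated B cells had FCRL4 in 13 of 877 cells, at 6.00 CPM in female 1, 3.33 in male 2, 2.75 in male 1 and 0 in the other 3 animals. CD11c+ MBC 1 had it in 7 of 2236 cells, CD11c+ MBC 2 in 5 of 1527, C-MBC 1 in 5 of 1290 and M-MBC 1 in 5 of 2190. In the contamination cluster 1 of 525 cells had a UMI, and in C-MBC 2 0 of 475, which allows up to 0.632%. At such counts no order of the subtypes could be read for FCRL4.

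FCRL5, the IgG-binding member with inhibitory motifs, was highest in Activated B cells, and the difference from the next subtype exceeded the larger SD. It ranged there from 310.1 CPM in male 1 to 937 in female 2 (median 507). Naive B cells 2 came next with 183 to 583 CPM (median 306), lower in 6 of 6 animals. C-MBC 1 (257 ± 87.0 CPM), CD11c+ MBC 2 (234 ± 37.1), CD11c+ MBC 1 (222 ± 59.0) and M-MBC 2 (204 ± 76.6) followed with means that did not differ beyond their spread. M-MBC 1 was at 151 ± 53.1 CPM, below CD11c+ MBC 1 and below M-MBC 2 in 6 of 6 animals. The lowest levels among the larger subtypes were those of C-MBC 2, from 29.8 to 112 CPM (median 48.9), and of Naive B cells 1, from 22.0 to 111 (median 46.0). C-MBC 2 and C-MBC 1, both rich in class-switched cells, thus lay at opposite ends of the memory subtypes for FCRL5, with a mean log2 difference of -2.19 ± 0.46 (SD) and C-MBC 2 lower in 6 of 6 animals. In antibody-secreting cells FCRL5 was at 30.9 ± 27.4 CPM, from 7 UMIs in 43 cells of 3 animals.

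FCRLA, the intracellular member, was highest in CD11c+ MBC 1 and M-MBC 1 and near 0 in C-MBC 2. In CD11c+ MBC 1 it ranged from 472 CPM in male 2 to 1411 in male 1 (median 580), and in M-MBC 1 from 304 to 906 (median 665). CD11c+ MBC 2 held 357 ± 165 CPM, below CD11c+ MBC 1 in 6 of 6 animals, with a mean log2 difference of -1.05 ± 0.26 (SD). C-MBC 1 was at 114 ± 67.9 CPM and C-MBC 2 at 19.4 ± 25.3, where the 6 animals gave 0, 4.59, 4.64, 5.57, 40.2 and 61.3 CPM. Every animal had less FCRLA in C-MBC 2 than in C-MBC 1. Antibody-secreting cells had 0 UMIs of FCRLA in 56 cells, which allows up to 5.36% of cells with a UMI. In Naive B cells 1 the animals formed a wide range, with female 2 at 109 CPM and male 2 at 138 against 422 to 578 in the other 4.

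Shares of cells with a UMI gave the same picture when each cell was thinned to 2000 UMIs, which left out cells with fewer. FCRL1 was then seen in 78.7% ± 11.8 of Naive B cells 1 and 17.4% ± 9.99 of CD11c+ MBC 2 (91.9% ± 8.04 and 35.9% ± 12.1 before thinning, at median depths of 4087 and 8161 UMIs). FCRL5 was seen in 53.5% ± 12.8 of Activated B cells and 7.75% ± 2.12 of Naive B cells 1 (82.0% ± 8.55 and 13.5% ± 2.56 unthinned). FCRLA was seen in 63.3% ± 12.7 of CD11c+ MBC 1 and 2.51% ± 3.37 of C-MBC 2 (83.3% ± 10.3 and 5.73% ± 5.96 unthinned). As a comparison, 0 of 56 antibody-secreting cells (median 5554 UMIs) had an FCRLA UMI, and 46.1% ± 6.39, 5.58% ± 4.70 and 28.0% ± 16.8 of contamination cells had FCRL1, FCRL5 and FCRLA at 2000 UMIs. The contamination cluster carried B cell markers as well, so it is no measure of free RNA alone, and FCRL2 in it was at 0.179% ± 0.439 against 21.2% ± 5.88 in M-MZL BC. Thinning to 2000 UMIs left out 271 of its 525 cells. FCRL2 was seen in 6.32% ± 3.77 of contamination cells and 46.4% ± 11.7 of M-MZL BC before thinning, and in 2.05% ± 1.77 and 12.7% ± 5.56 at 1000 UMIs.

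Over the 12 subtypes the members fell into different profiles. On mean log2(CPM + 1), FCRL1 and FCRL2 followed each other (Pearson r = 0.87, and 0.80 over the 9 subtypes with the most cells), as did FCRL3 and FCRL5 (0.93 and 0.83). FCRL1 and FCRL5 did not (0.08 and -0.48), and neither did FCRL2 and FCRLA (0.21 and -0.15). Among the other pairs, FCRLA was at 0.79 with FCRL3 and 0.75 with FCRL5 over 12 subtypes, and at 0.47 and 0.42 over 9. FCRL4, with its 46 UMIs, was at 0.71 and 0.92 with FCRL5, and at -0.21 and -0.30 with FCRL1. These are descriptions over subtypes that share animals and libraries. Among 6340 other genes with a mean of at least 20 CPM, the profiles most like that of FCRL1 were those of MAML2, a Notch co-activator (r = 0.95), ELL3, an elongation factor (0.95), and PGM2L1 (0.93). For FCRL2 they were RASSF6 (0.95), the myosin gene MYO1C (0.94) and CCSER1 (0.92), and for FCRL3 they included ARHGAP31 (0.94), which encodes a GTPase-activating protein, and ATRNL1 (0.92). ARHGAP31 was also second for FCRL5 (0.94), after the lipid kinase gene PIKFYVE (0.95) and before ZBTB43 (0.93). The profile nearest to FCRLA was that of FCGR2A (0.96), an IgG Fc receptor gene at 244 CPM in CD11c+ MBC 1 and 26.3 in C-MBC 2, followed by ARHGAP5 (0.92) and the interferon gamma receptor gene IFNGR1 (0.92). FCGR2B, the inhibitory Fc receptor gene closely related to FCGR2A, is not a row of the table, so which of these genes the FCGR2A counts came from is uncertain. For FCRL4 the rule gave NR4A1, IRF2BP2 and SRSF5 (0.86 to 0.88), which rest on its 46 UMIs.

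To relate the family to the heavy chain class, the class of each cell was read from its BCR library, for 10293 B cells with exactly 1 productive heavy chain of known class. FCRL1 was at 587 CPM in IgM and 637 in IgD cells, against 255 in IgG and 395 in IgA cells (means of 6 animals, and of 5 for IgA). FCRLA followed the order IgD (545 CPM), IgM (448), IgG (268), IgA (84.3). FCRL5 was alike in IgM, IgD and IgG cells (201, 166 and 214 CPM) and lower in IgA cells (83.6). FCRL2 was lowest in IgG cells (14.6 CPM), with 58.0 in IgM, 33.3 in IgD and 52.3 in IgA cells.

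**Figure D2:**
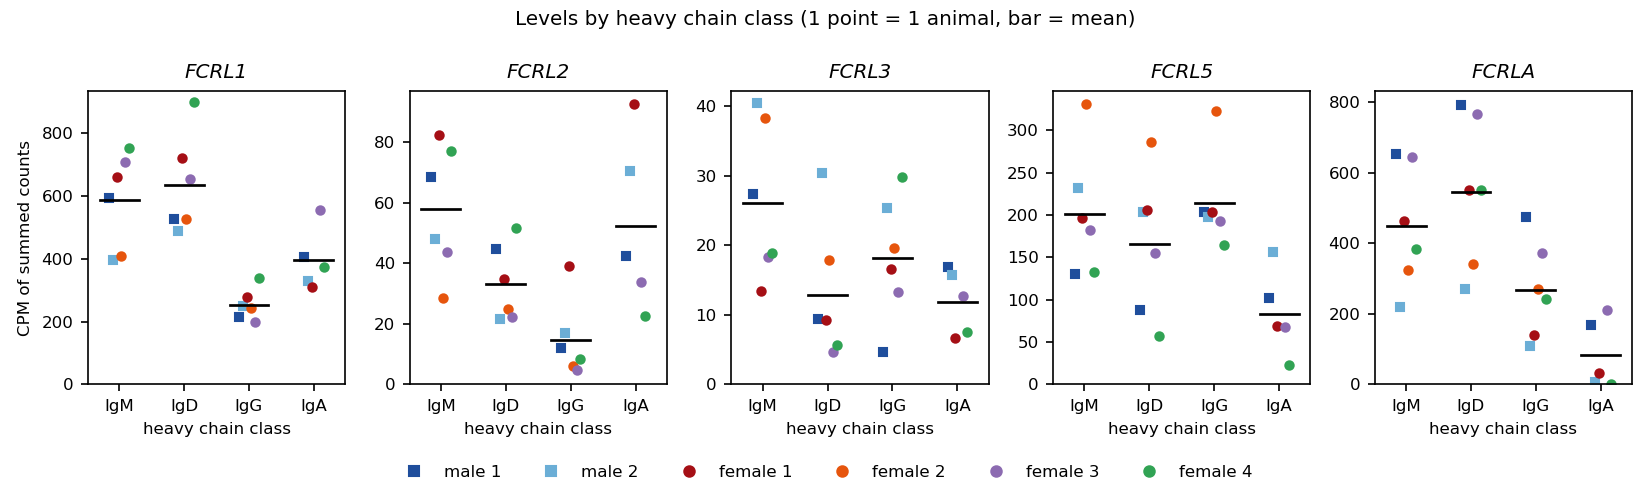
Level of 5 family members, in CPM of counts summed per animal on axes that start at 0, by the heavy chain class of the cells. Points are animals (squares males, circles females) and bars are means: IgG cells hold the lowest mean of FCRL1 (255 CPM) and FCRL2 (14.6 CPM), and IgA cells that of FCRL5 (83.6 CPM) and FCRLA (84.3 CPM).

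Class-switched cells (IgG, IgA or IgE, 2380 cells) were compared with unswitched cells (IgM or IgD, 7913 cells) of the same animals. FCRL1, FCRL2 and FCRLA fell in switched cells, and FCRL3 and FCRL5 did not pass the test. FCRL1 ranged from 213 to 346 CPM (median 263) in switched and from 407 to 769 (median 622) in unswitched cells, so the groups did not overlap. Its log2 difference was -1.16 ± 0.10 (SE, n = 6 animals, edgeR quasi-likelihood adjusted p = 8.6e-07). FCRL2 ranged from 5.98 to 43.3 CPM (median 13.0) in switched and from 26.8 to 77.6 (median 53.7) in unswitched cells. The ranges overlapped through female 1, whose switched cells were the highest, yet every animal was lower in its switched cells, at -1.67 ± 0.21 (edgeR adjusted p = 2.3e-05). FCRLA ranged from 94.3 to 445 CPM (median 236) in switched and from 225 to 689 (median 437) in unswitched cells, again lower in 6 of 6 animals, at -0.97 ± 0.14 (edgeR adjusted p = 8.8e-05). FCRL5 was at 203 ± 56.1 CPM in switched and 193 ± 71.4 in unswitched cells, a difference of 0.10 ± 0.09 (edgeR adjusted p = 0.49), and FCRL3 was at -0.34 ± 0.19 (edgeR adjusted p = 0.21).

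Thus 3 of the 5 members that passed the filter on low counts were called, all lower, where 24.4% of the 10486 genes tested were called in either direction and 11.7% were lower. FCRL4 did not pass that filter (8 UMIs in switched and 27 in unswitched cells). The median log2 difference of the 5 members was -0.97, and that of all genes tested -0.0072. Within batch 1 the differences were -0.97 for FCRL1, -1.51 for FCRL2 and -0.90 for FCRLA, and within batch 2 they were -1.24, -1.68 and -0.998, each called there too. FCRL3 was at -1.13 in batch 1 (edgeR adjusted p = 0.069) and -0.08 in batch 2 (0.81), called in neither. Its difference between the batches had an unadjusted edgeR interaction p of 0.012 (adjusted p = 0.70), with 0 of 10486 genes called. Summed markers of T cells (140 ± 87.0 CPM switched, 154 ± 83.4 unswitched), NK cells (127 ± 140 and 120 ± 135) and monocytes (66.8 ± 13.4 and 63.8 ± 29.7) overlapped between the classes. Depth differed, with a median of 6417 UMIs per switched and 5269 per unswitched cell, and its part was not tested. Switched and unswitched cells also lay in different subtypes: 28.8% of switched cells were CD11c+ MBC 2 and 28.3% C-MBC 1, against 3.84% and 2.30% of unswitched cells, of which 18.4% were Naive B cells 1 and 17.04% M-MZL BC.

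**Figure D3:**
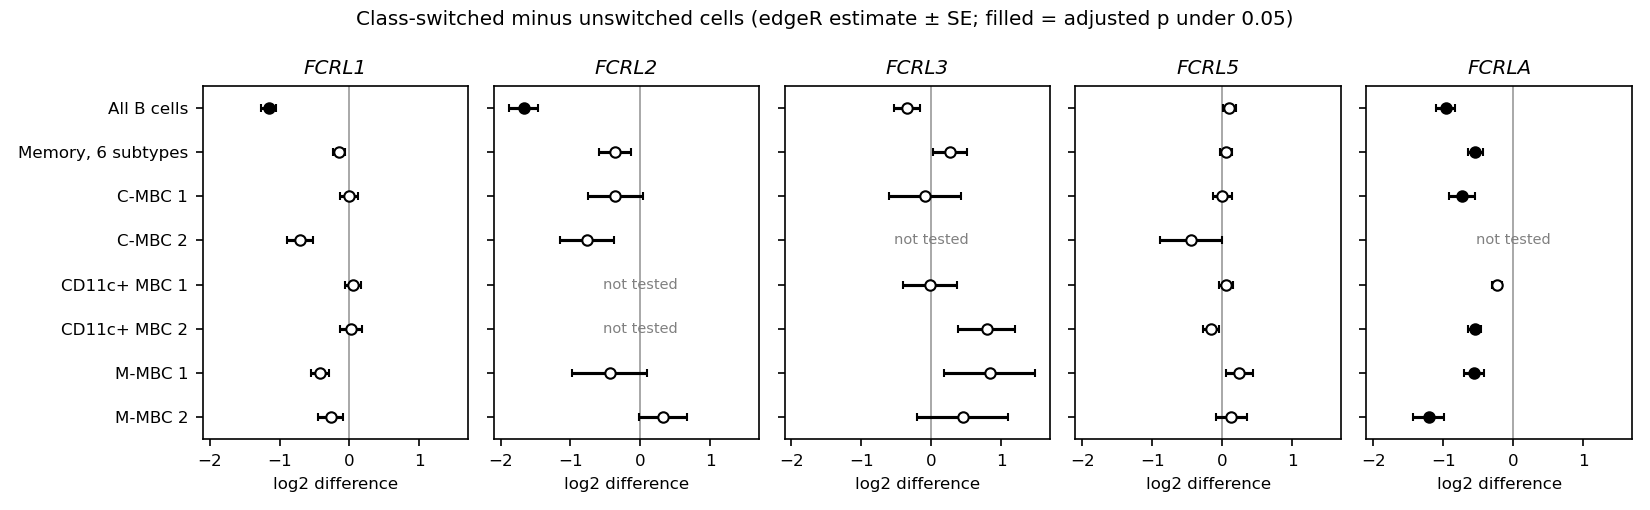
Difference between class-switched and unswitched cells (log2, edgeR estimate ± SE) for 5 members in all B cells, over 6 memory subtypes with subtype as a block, and within each subtype alone. Filled points have an adjusted p under 0.05: FCRL1 and FCRL2 in all B cells (-1.16 and -1.67) but not within memory (-0.14 and -0.36), and FCRLA in both (-0.97 and -0.54).

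Genes around the family moved in both directions. Of 8 Fc receptor relatives tested 4 fell and 0 rose, with the low-affinity IgE receptor gene FCER2 at -1.90 ± 0.31 (edgeR adjusted p = 0.00024), the IgM receptor gene FCMR at -0.45 ± 0.09 (0.0014) and the adaptor gene TYROBP at -1.85 ± 0.17 (1.1e-06). Of 11 inhibitory co-receptors 5 fell, among them CD72 (-2.35 ± 0.22), PECAM1 (-0.91 ± 0.12) and BTLA (-0.64 ± 0.16), and 1 rose, SIGLEC10 (0.41 ± 0.11). Of 25 signalling partners of FCRL tails and the BCR 7 fell, such as the receptor chain gene CD79B (-1.18 ± 0.12), the linker gene BLNK (-0.84 ± 0.10) and NFATC1 (-0.88 ± 0.08). In the same list 6 rose, such as the kinase gene FGR (0.66 ± 0.13), PIK3AP1 (0.33 ± 0.08) and PLCG2 (0.26 ± 0.07). Of 20 genes of CD11c+ or atypical memory 14 rose, led by the integrin genes ITGAM (2.17 ± 0.17) and ITGAX (0.80 ± 0.09) and the phosphatase gene DUSP4 (1.43 ± 0.16), and 3 fell: the complement receptor gene CR2 (-1.70 ± 0.17) and the homing receptor genes CCR7 (-0.48 ± 0.15) and CXCR5 (-0.27 ± 0.10). FCRL5, known in humans from such memory cells, did not rise with that list in the comparison of the classes. The median differences of the 4 lists were -0.31, -0.49, 0.00046 and 0.61 in this order.

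To set class apart from subtype, switched and unswitched cells were compared within the 6 memory subtypes, with animal and subtype as blocks. FCRLA was the member that fell, by 0.54 ± 0.10 on the log2 scale (SE, 63 sums of 6 animals, edgeR adjusted p = 0.00033). It was lower in switched cells in 24 of the 27 animal and subtype pairs with both classes, which come from the same 6 animals. Sums of 1 animal in several subtypes entered this fit separately. The SE and p therefore do not measure how far the difference varied between animals. Called genes made up 2.56% of the 6916 tested, and 1.36% were called lower. FCRL1 was at -0.14 ± 0.09 (edgeR adjusted p = 0.51), FCRL2 at -0.36 ± 0.23 (0.56), FCRL3 at 0.27 ± 0.25 (0.75) and FCRL5 at 0.05 ± 0.09 (0.91), so 1 of 5 tested members was called. FCRL2 and FCRL1, called in all B cells, were not called in this fit, which has subtype as a block and also leaves out the other subtypes. Within batch 1 FCRLA was at -0.69 (edgeR adjusted p = 0.0025), and within batch 2 at -0.45 (0.075), where its call was lost. FCRL5 was at 0.42 in batch 1 and -0.09 in batch 2. That difference between the batches had an unadjusted p of 0.0032 in edgeR's interaction test. It did not pass after adjustment (adjusted p = 0.54, with 0.0434% of genes called). With animal and subtype together as 1 block FCRLA was at -0.52 ± 0.07, and 345 of 7559 genes (4.56%) were called. Among the listed genes, TYROBP (-1.53 ± 0.16), CD72 (-0.84 ± 0.17), CD79B (-0.31 ± 0.09), NFATC1 (-0.30 ± 0.09) and the transcription factor gene SOX5 (-0.47 ± 0.08) also fell, and the integrin gene ITGAM rose (0.77 ± 0.18).

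The lower FCRLA of switched cells was then read in single subtypes. In CD11c+ MBC 2 unswitched cells of female 1, female 2, female 3, male 1 and male 2 held 270, 311, 599, 748 and 287 CPM, and switched cells 171, 284, 364, 549 and 145. Every animal was lower in the switched cells, at -0.55 ± 0.09 (SE, n = 5 animals, edgeR adjusted p = 0.00043). In M-MBC 2 the unswitched cells of female 1, female 3 and male 2 held 423, 514 and 175 CPM and the switched cells 178, 253 and 42.9, lower in each, at -1.21 ± 0.22 (n = 3 animals, edgeR adjusted p = 0.00022). C-MBC 1 was lower in 5 of 5 animals (-0.73 ± 0.19, edgeR adjusted p = 0.040), and M-MBC 1 in 4 of 5 (-0.56 ± 0.14, edgeR adjusted p = 0.027), with male 1 at 923 CPM in unswitched and 971 in switched cells. In CD11c+ MBC 1 the difference was -0.23 ± 0.08 (n = 6 animals, edgeR adjusted p = 0.22), and female 3 and female 4 were higher in switched cells. In C-MBC 2 FCRLA did not pass the filter, with 12 UMIs in 52 unswitched and 4 UMIs in 159 switched cells of 3 animals.

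Called genes made up 1.44% of those tested in CD11c+ MBC 2 (0.859% lower), 0.284% in M-MBC 2 (0.160% lower), 1.18% in C-MBC 1 (0.511% lower), 0.326% in M-MBC 1 (0.157% lower), 0.681% in CD11c+ MBC 1 (0.353% lower) and 0.00% in C-MBC 2. Of 4023 genes in C-MBC 2, 0 were called by edgeR or DESeq2, and 293 had an unadjusted edgeR p under 0.05, FCRL1 among them (-0.71 ± 0.18, lower in 3 of 3 animals, edgeR adjusted p = 0.37). FCRL1, FCRL2, FCRL3 and FCRL5 were not called in any single subtype in which they were tested. Some FCRLA calls rested on single animals: without female 1, FCRLA was called in 1 of the 5 subtypes tested, CD11c+ MBC 2. DESeq2 called FCRLA in CD11c+ MBC 2 (adjusted p = 0.0058) and not in C-MBC 1 (0.19), M-MBC 2 (0.31) or M-MBC 1 (0.999). M-MBC 1 lost its call without female 2 (-0.47) as well, and C-MBC 1 lost it without female 1, female 3, male 1 or male 2 (-0.81 to -0.59). By batch, FCRLA was called in CD11c+ MBC 1 within batch 1 (-0.56) and not within batch 2 (-0.11), and in M-MBC 1 within batch 2 (-0.71) and not within batch 1 (-0.17). CD11c+ MBC 2 had -0.58 in batch 1 and -0.54 in batch 2, called in batch 2 alone, C-MBC 1 had -1.26 and -0.48, called in neither, and M-MBC 2 had -1.14 in batch 2, called, with 1 animal in batch 1. CD11c+ MBC 1 gained a call without female 4, whose unswitched sum held 16 cells (-0.29 ± 0.08, edgeR adjusted p = 0.041). Whether the FCRLA difference varied over subtypes was tested as an interaction, which gave no call for FCRLA (edgeR unadjusted p = 0.218), with 0 of 7160 genes called (0.00%) and 364 at an unadjusted p under 0.05.

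**Figure D4:**
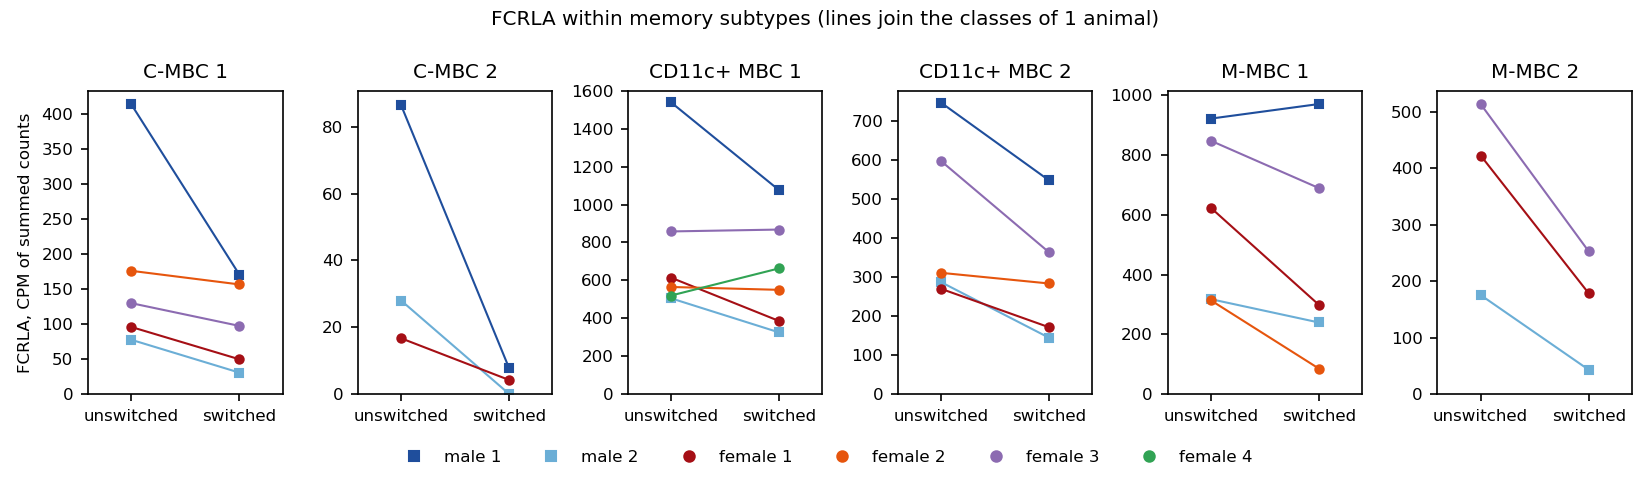
FCRLA in unswitched and switched cells of 6 memory subtypes, in CPM of counts summed per animal, on axes that start at 0 and differ between subtypes. Lines join both classes of 1 animal (squares males, circles females): all lines fall in C-MBC 1, C-MBC 2, CD11c+ MBC 2 and M-MBC 2, and 3 rise, those of female 3 and female 4 in CD11c+ MBC 1 and of male 1 in M-MBC 1.

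Among switched cells IgA and IgG were compared in the 5 animals with at least 10 IgA cells (145 IgA and 1934 IgG cells, female 2 left out). FCRL1 and FCRL2 were higher and FCRL5 and FCRLA lower in IgA cells. FCRL2 was at 92.5, 33.9, 22.5, 42.3 and 70.5 CPM in IgA cells of female 1, female 3, female 4, male 1 and male 2, and at 39.0, 4.73, 8.53, 11.99 and 16.9 in their IgG cells (log2 difference 1.68 ± 0.32 SE, edgeR adjusted p = 0.00026). FCRL5 was at 69.4, 67.7, 22.5, 102 and 157 CPM in the IgA and 203, 193, 164, 204 and 198 in the IgG cells of the same animals (-1.37 ± 0.21, edgeR adjusted p = 1.2e-05). For FCRL5 the 2 classes did not overlap, for FCRL2 they did, and each animal had the same direction. FCRLA was at 33.0, 212, 0, 169 and 7.83 CPM in IgA and 140, 371, 243, 475 and 108 in IgG cells (-1.80 ± 0.25, edgeR adjusted p = 2.3e-06), lower in 5 of 5 animals. FCRL1 was at 395 ± 96.7 against 257 ± 56.4 CPM (0.56 ± 0.16, edgeR adjusted p = 0.014). FCRL3 was at -0.68 ± 0.52 (edgeR adjusted p = 0.48), from 10 UMIs in IgA cells.

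Of 7777 genes 12% were called in this comparison, 4.11% higher and 7.91% lower in IgA cells, against 4 of 5 members. IgA and IgG cells lay in different subtypes: 58.8% of all 153 IgA cells were C-MBC 2 and 9.80% antibody-secreting cells, while 30.8% of IgG cells were CD11c+ MBC 2, 29.7% C-MBC 1 and 7.58% C-MBC 2. With animal and subtype as blocks in memory cells, 0 of 4 tested members were called by edgeR (1 at an unadjusted p under 0.05), and 31 of 5287 genes (0.586%) were. FCRL5 was then at -1.21 ± 0.46 (edgeR adjusted p = 0.33), FCRL2 at 0.09 ± 0.56, FCRL1 at -0.06 ± 0.19 and FCRLA at 0.57 ± 0.93, the last 2 with the sign turned. Inside C-MBC 2 alone FCRLA was at 9.90 ± 19.3 CPM in IgA (n = 5) and 6.81 ± 12.03 in IgG cells (n = 6), and FCRL5 at 25.3 ± 22.6 and 54.2 ± 29.2. FCRL1 was called in 8 of 16 other settings. Among the losses were the fits without female 3 (0.33, edgeR adjusted p = 0.28) and without male 1 (0.53, 0.058). Its call was also lost with no replicate block (0.58, edgeR adjusted p = 0.15), within each batch, and by DESeq2 (0.59, adjusted p = 0.051). Within batch 1 the differences were 0.63 for FCRL1, 1.93 for FCRL2, -0.65 for FCRL5 and -1.87 for FCRLA, and within batch 2 they were 0.57, 1.58, -1.79 and -1.69. FCRL2, FCRL5 and FCRLA were called within batch 2, and FCRLA within batch 1. Summed markers of antibody-secreting cells were at 1270 ± 794 CPM in IgA and 429 ± 63.9 in IgG cells. Monocyte markers were at 19.5 ± 14.5 CPM (0 to 39.6) in IgA and 75.1 ± 11.8 (58.1 to 91.0) in IgG cells, with no overlap. The 4 B cell markers were at 2893 ± 520.0 and 3778 ± 548 CPM, and the T cell markers at 236 ± 122 and 140 ± 82.4. FCRL2, FCRL5 and FCRLA were also called in a fit that left out the cells annotated as antibody-secreting. Beyond that, the part of these markers in the differences was not tested.

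Around the family, IgA cells had less of the genes of CD11c+ or atypical memory, of which 11 of 19 were lower and 1 higher, among them ITGAX (-2.42 ± 0.17), TOX2 (-3.43 ± 0.27) and ITGB2 (-1.99 ± 0.16). Of 25 signalling partners 7 were lower, including the Src-family kinase genes FGR (-1.94 ± 0.23) and LYN (-0.97 ± 0.12), and 1 was higher (CD79B, 0.61 ± 0.14). Of 9 inhibitory co-receptors 3 were lower, CD22 (-1.85 ± 0.23), LILRB1 (-2.19 ± 0.35) and SIGLEC10 (-1.27 ± 0.21), and 1 was higher, SIT1 (2.42 ± 0.39). Of 5 Fc receptor relatives FCGR2A was lower (-1.43 ± 0.22), and FCER2 (1.10 ± 0.29) and FCMR (0.49 ± 0.15) were higher.

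Somatic mutation was estimated by counting differences between a cell's V region and the closest V sequence that recurred among cells of that animal with that V gene. Unswitched memory cells with 2 or more differences per 100 bases (mutated) were compared with those under 1 (unmutated), with animal and subtype as blocks. There were 24 sums of mutated cells from 5 animals and 21 of unmutated cells from 6. Sums of 1 animal in several subtypes entered this fit separately too, so its SEs and p do not measure the spread between animals. None of the 5 tested members passed edgeR's adjusted threshold, and 4 had an unadjusted p under 0.05. FCRL3 had the largest difference, 0.79 ± 0.28 (SE, edgeR adjusted p = 0.11), higher in mutated cells in 15 of 20 animal and subtype pairs, and DESeq2 called it (0.93, adjusted p = 0.048). FCRL2 was at 0.61 ± 0.25 (edgeR adjusted p = 0.20), FCRL1 at -0.24 ± 0.10 (0.22), FCRLA at -0.19 ± 0.08 (0.26) and FCRL5 at 0.07 ± 0.09 (0.83). Within batches 1 and 2 FCRL3 was at 0.79 and 0.77, FCRL1 at -0.12 and -0.30, and FCRLA at -0.38 and -0.08, none of them called. With no filter on low counts edgeR called FCRL1 (-0.29), FCRL3 (0.75) and FCRLA (-0.24). Called genes made up 3.65% of the 6968 tested, among them LILRB1 (-1.14 ± 0.15) and CD72 (-0.81 ± 0.17), both inhibitory co-receptors, and TYROBP (0.61 ± 0.13). Mutated and unmutated cells lay in different subtypes, with 35.1% of mutated cells in M-MBC 2 and 48.8% of unmutated cells in M-MBC 1. FCRLA ranged from 207 to 762 CPM (median 378) in all mutated and from 362 to 1213 (median 682) in all unmutated memory cells, and FCRL3 from 13.3 to 48.3 (median 21.4) and from 4.85 to 30.3 (median 10.47).

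Animals differed in level, and some kept their place over subtypes. FCRL5 was highest in female 2 in 8 of the 9 subtypes with the most cells, and over all B cells it was at 322 CPM there against 139 to 230 in the other animals. FCRLA was highest in male 1 in 6 of 9 subtypes and lowest in male 2 in 5 of 9, at 643 and 200.3 CPM over all B cells. Both were in batch 1, with medians of 4079 and 4018 UMIs per cell. FCRL2 was highest in female 1 in 5 of 9. Males and females were compared over all B cells, with 2 against 4 animals and sex equal to batch. Of the 6 members, all of which passed the filter here, 0 were called by edgeR or DESeq2 and 0 had an unadjusted p under 0.05. The sex difference was 0.72 ± 0.36 (log2, males minus females, edgeR adjusted p = 0.34) for FCRL3, 0.31 ± 0.44 for FCRLA and -0.04 ± 0.32 for FCRL5. Called genes made up 0.340% of the 11180 tested.

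**Figure D5:**
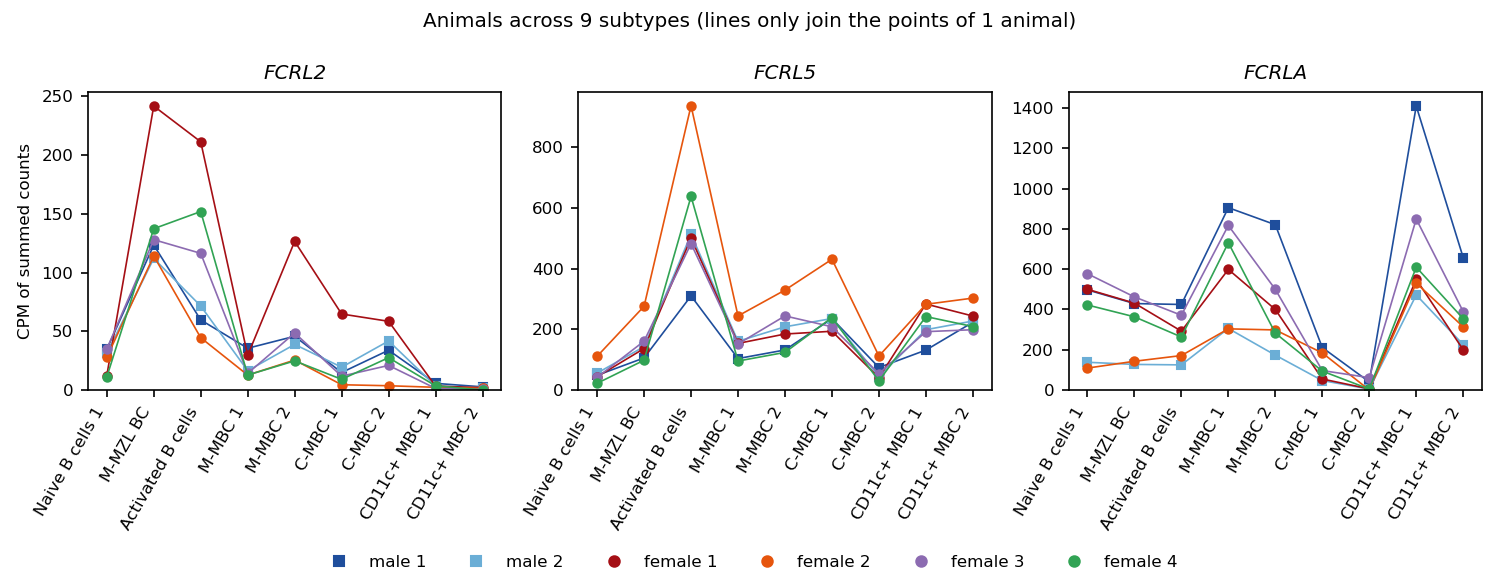
FCRL2, FCRL5 and FCRLA in the 9 subtypes with the most cells, in CPM of counts summed per animal on axes that start at 0, with lines that only join the points of 1 animal. Female 2 is the highest for FCRL5 in 8 of 9 subtypes, male 1 for FCRLA in 6, and female 1 for FCRL2 in 5.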

How the data were processed

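The authors deposited the expression data as 1 table of raw UMI counts per gene and cell, with a cell table that gives the library, the subtype annotation, and the percent of each cell's UMIs that are ribosomal or mitochondrial. The submitters' processing notes list Seurat 5.0.1, Cell Ranger 9.0.1 and R 4.3.1. No genome build or annotation is given in the sources used here. BCR contigs, with deposited counts of UMIs, gave the heavy chain class. All cells carried the authors' singlet call, so no doublet caller was run.

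Unnamed identifiers (5813 genes, 14.9% of UMIs) and 23 named immunoglobulin genes (0.186%) stayed out of library sizes and tests. B cells with no productive heavy chain (2636), with more than 1 (282) or with no constant gene (113) stayed out of comparisons by class. Counts were summed per animal and class (sums of under 10 cells left out) and tested with edgeR 4.0.16 in R 4.3.3 (filterByExpr, TMM, quasi-likelihood test), with Benjamini-Hochberg adjustment over all genes tested and a threshold of 0.05. DESeq2 1.42.0 was an alternative. Standard errors are the size of the log2 difference over the square root of F. Library sizes ran from 46623 counts in the smallest sum of 1 subtype to 9727479 in the comparison of all B cells by class. Classes were paired because they came from the same animal, with correlations of 0.54 to 0.81 between the deviations of the switched and unswitched sums of an animal. The spread between animals includes the technical noise of each library. V sequences seen in at least 3 unswitched cells of an animal served as common sequences, and 498 cells between both mutation classes were left out. A mutated sequence shared by at least 3 cells of a clone could thus serve as a common sequence, and its cells would count as unmutated. On simulated counts, edgeR called 100% of 2-fold and 63.0% of 1.5-fold changes in the comparison of switched cells (10486 genes), and 78.0% and 17% in that of IgA cells (7777 genes). The changed genes were all above the median level. Dispersion was set and not estimated, and an animal's effect on a gene was equal in both classes. These shares therefore do not describe genes with low counts.

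The members and gene lists were chosen with earlier results of these data known. Named genes are all members, the 3 genes with the profile most like each, and up to 3 called genes per list, direction and comparison with the smallest p. Some genes that this rule names are not reported here. No sequences are shown, since none of the tables at hand holds them.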

Additional observations from a re-analysis of the deposited data

Results flagged for a closer look

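Single animals stood apart from the others in 12 of 70 groups of a gene and a subtype or class with a mean of at least 10 CPM. In each, the gap of the highest animal to the next was large against the whole range by Dixon's test. Its rate of about 1 in 20 groups by chance holds for independent groups of normally distributed values. The groups here share animals and cells, so the number of flags cannot be set against that rate. Female 1 was the highest for FCRL2 in C-MBC 1 (64.7 CPM, others 4.46 to 19.4), in M-MBC 2 (126 CPM, others 24.8 to 48.5), in M-MZL BC (242 CPM, others 112 to 137) and in IgG cells (39.0 CPM, others 4.73 to 16.9). Female 2 was the highest for FCRL5 in C-MBC 1 (431 CPM, others 194 to 239), in M-MZL BC (276 CPM, others 98.1 to 161) and in IgG cells (323 CPM, others 164 to 204).

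FCRL3 was highest in female 2 in Activated B cells (145 CPM, others 18.0 to 59.9) and in female 4 in CD11c+ MBC 2 (74.4 CPM, others 8.30 to 25.9, from 42 cells). It was highest in male 2 in CD11c+ MBC 1 (33.2 CPM, others 7.01 to 13.6) and in Naive B cells 2 (66.8 CPM, others 15.4 to 22.5). FCRLA was highest in male 1 in Naive B cells 3 (188 CPM, the other 3 animals 32.3 to 51.5), where its sum held 20 cells.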

How the results depend on the processing

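Of 670 values of the members' tests under another setting, 621 kept their side of the threshold, 38 lost a call, 9 gained one and 2 called values turned direction: FCRL1 (-0.061) and FCRLA (0.57) in IgA against IgG cells with animal and subtype as blocks. The cause was not tested. Of the 621, 44 were called in neither setting and turned sign. Counts of called genes moved more. With no replicate block, which ignores the pairing of classes within animals, 104 genes were called in switched against unswitched B cells (2561 with it), 24 within memory subtypes (177), 263 in IgA against IgG (935) and 45 in mutated against unmutated cells (254), and FCRLA was called in 0 single subtypes (4 of 5 with it). Of the members, FCRL1 kept its call between switched and unswitched cells without the block (-1.17), and FCRL2 (-1.64) and FCRLA (-0.88) lost theirs. Leaving out 1 animal gave 1707 to 2461 calls for switched cells, 112 to 168 within memory, 623 to 820 for IgA, 120 to 257 for mutated cells, 7 (without male 1) to 136 (without female 2) for males against females (38 with all), and FCRLA calls in 1 to 5 subtypes. The lowest counts of the first 4 were without female 3. With no filter on low counts there were 270 calls within memory, 398 for mutated cells and 67 between sexes. DESeq2 called 607 genes between sexes and FCRLA in 1 subtype, and keeping immunoglobulin and unnamed genes gave 72 between sexes. Settings that were not planned before seeing the data were batches, a joint block, the interaction tests and another rule for common V sequences. Within males there were 349 calls for switched cells, 50 within memory, 157 for IgA, 57 for mutated cells and 1 subtype of 4 for FCRLA, and within females 95 within memory and 141 for mutated cells. Animal and subtype together as 1 block gave 345 within memory, and animal and subtype as blocks in memory cells alone left 31 of 5287 genes for IgA. Of 612 values of the subtype levels under another setting, 611 stayed within 1 SD of the main value. Most of these settings left out 1 animal, which cannot move a mean by more than 1 SD, so they were no test. Of 72 shares of cells, 33 moved by more than 1 SD with 1000 UMIs per cell. Drawing fewer UMIs lowers the expected share in the same cells, so this was no test of the shares either. FCRL4 had 46 UMIs and the IgA sums held 145 cells, which limits what can be detected in them.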
